A study of Homo sapiens with 4 samples.

Results

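The genes described here carry retinoic acid, the active derivative of vitamin A, from its uptake into the cell to its receptors in the nucleus. They are 10 of the 17894 genes listed for each library. They were chosen by name for their known roles, with earlier results of these data known. STRA6 acts in uptake, ALDH1A2 in synthesis, and DHRS3 and CYP26A1 in holding the amount down. CRABP1 and CRABP2 carry retinoic acid within the cell, and RARA, RARB, RARG and RXRA are receptors. All 10 were listed in every library, and 8 of them had a mean of at least 1 FPKM (fragments per kilobase of transcript, scaled to the mapped reads of a library, a level per length) over the 4 libraries. RNA was sequenced from H1, an established human embryonic stem cell line, at day 2 of hematopoietic differentiation on mAGM-S3, a mouse stromal line. The human cells were first sorted with an antibody to TRA-1-85, a surface antigen of human cells. The 4 libraries were 1 of wild type H1 without added R-spondin2 (control), 1 of wild type H1 given R-spondin2 and 2 of LGR4-/- H1. R-spondin2, a secreted agonist of WNT signaling, was given at 20 ng/mL for 1 day. The mAGM-S3 cells are reported to express mouse R-spondin2 themselves. The LGR4-/- cells are labelled as knockouts of LGR4, a receptor for R-spondins. The labels number the LGR4-/- samples 1 and 2 and the deposited headers name them differently, and they are called clone 1 and clone 2 here, although no source used here says that each line grew from a single cell. All groups shared the co-culture and the serum-containing medium, and no retinoid is named among its supplements.

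Cells take up retinol from the blood or from serum and oxidise it in a pair of steps, first to retinal and then to retinoic acid. Retinoic acid binds receptors of the RAR family, which sit on DNA as partners of RXR receptors and switch from repressing to activating their target genes once the ligand is bound. The supply is held in check by enzymes that turn retinal back into retinol and by the CYP26 enzymes that oxidise retinoic acid itself, and several of these brakes are themselves induced by retinoic acid. In the early embryo the balance of synthesis and breakdown patterns the axis through the HOX genes, and retinoic acid produced by mesoderm is known to take part in the formation of blood-forming endothelium.

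RAR and RXR pairs bind direct repeats of a 6-base element, classically with 5 bases between the copies. Promoters of all 10 genes, 24 in all and each spanning 250 bases before to 50 after an annotated start (RefSeq, GRCh38.p14), were searched on both strands for direct repeats of the consensus element AGGTCA or of its variants (AGTTCA, or with a G in front GGGTCA and likewise GGTTCA), in any pairing. Only RARB and CYP26A1 held a repeat with 5 bases between the elements, a form present in 31 of 35116 promoters (0.0883%). The matches are shown because both genes are textbook targets of retinoic acid while one was among the highest and the other among the lowest of the levels described below. Each is given 5′ to 3′ on the strand of the repeat, with the 6-base elements in capitals.
RARB: gggtagGGTTCAccgaaAGTTCActcgcat
CYP26A1: gacaattAGTTCAcccaaAGTTCAtcttta
The RARB stretch lies at chr3:25428204-25428233 on the gene's own strand, outside annotated exons, and its repeat ends 37 bases before the start. The CYP26A1 stretch lies at chr10:93073797-93073826 on the strand opposite to the gene, and its repeat ends 74 bases before the start, within an exon of another CYP26A1 transcript. The repeats match at 15 of 17 bases. No member promoter held a repeat with 1 base or with 2 bases between the elements, forms found in 0.131% and 0.0399% of all promoters. A match is a description of the letters and no measurement of binding.

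With 1 library of the control and 1 of R-spondin2, a difference from the control has no replicate check, and all comparisons with the control use the same control library. A difference is given as the difference in log2(FPKM + 1), and a gene was called where it reached 1 (2-fold on that scale), in LGR4-/- only where both clones reached it in the same direction. Depth, estimated from the steps between low values, was 8700000 to 8920000 reads, with the highest 1.03 times the lowest. Where reads are given, they are the number implied by the FPKM, that depth and the shortest annotated transcript, and the 95% intervals of a ratio are exact binomial intervals that cover counting error only. LGR4 itself was at 21.8 FPKM in the control, 24.3 in R-spondin2, 7.40 in clone 1 and 13.9 in clone 2, which is 34.0% and 64.1% of the control in the clones. The edit made in LGR4 is not given in the sources used here, so these RNA levels do not show whether its function was lost, and LGR4-/- is the genotype as labelled. Markers of cell states moved with the groups. The summed level of 8 pluripotent cell markers was 1551 FPKM in the control, 1247 in R-spondin2, 2558 in clone 1 and 2346 in clone 2. TDGF1 alone of them was higher in R-spondin2 than in the control (209 against 186 FPKM). The 8 primitive streak and mesoderm markers summed to 1087, 1420, 384 and 597, most of it from MIXL1 and APLNR. T (70.3, 77.8, 37.6 and 66.5 FPKM) and KDR (34.4, 34.1, 26.8 and 32.9) were nearly level with the control in clone 2. The 6 definitive endoderm markers summed to 2512, 3610, 668 and 1116 FPKM in the same order, most of it from CER1. SOX17, GSC and CXCR4 were, like CER1, below the control in both clones. FOXA2 went the other way (9.05, 8.44, 11.9 and 11.6 FPKM), and HHEX was above the control in clone 2 (9.69 against 8.28) and below it in clone 1. Neuroectoderm markers (6) summed to 149, 174, 120 and 130 FPKM, mostly from NES and OTX2, with SOX1 at 0 to 0.03. The 6 hemato-endothelial markers summed to 5.52, 5.60, 1.53 and 2.60 FPKM, with CDH5 at 0 to 0.05. RUNX1 was past 2-fold lower in both clones (3.96, 3.71, 0.61 and 1.29 FPKM), and ETV2 was also lower (1.01, 0.99, 0.16 and 0.49). CD34 (0.08, 0.22, 0.21 and 0.17 FPKM) and PECAM1 (0.34, 0.47, 0.45 and 0.55) were low and stood above the control in both clones. The 7 stromal markers summed to 238, 297, 216 and 247 FPKM, with DCN at 0.03 to 0.27. COL1A1 (64.0, 83.6, 74.8 and 74.6 FPKM) and THY1 (44.0, 36.1, 54.3 and 64.5) were above the control in both clones. COL1A2 (79.4 to 153) and PDGFRB (2.86 to 5.52) were below it in both, and COL3A1 in clone 1 only. LUM (5.49, 9.11, 0.16 and 1.45 FPKM) was past 2-fold lower in both clones and also differed between them. In such bulk samples, fewer cells of a type and less RNA per cell cannot be told apart, and the part of these shifts in the values below was not tested.

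At day 2 the cells held high levels of transcripts for proteins that bind or destroy retinoic acid and almost none of the transcript for the main embryonic synthetic enzyme. CRABP2, CRABP1 and CYP26A1 were the highest members in every library, at 62.0 to 279.5 FPKM, and CRABP2 ranked 194th among all genes in the control, above 98.9% of them. RARG, STRA6, RXRA and RARA lay between 8.44 and 26.7 FPKM. DHRS3 was at 0.93 to 7.12 FPKM, and ALDH1A2 and RARB stayed under 0.40 FPKM in every library.

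**Figure D1:**
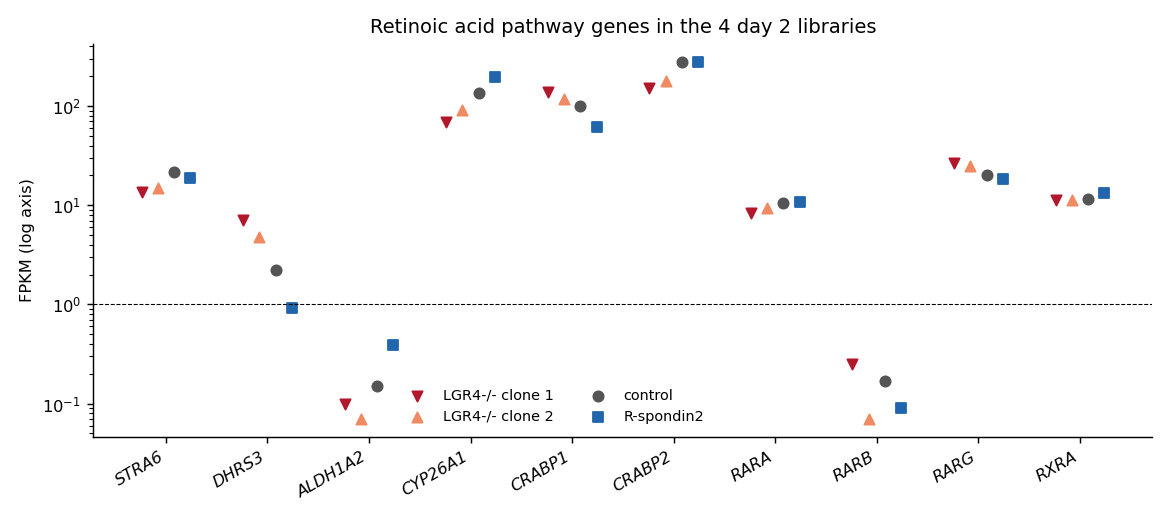
FPKM (log axis) of the 10 retinoic acid genes in the 4 libraries, 1 point per library, with a dashed line at 1 FPKM. CYP26A1, CRABP1 and CRABP2 lie at 62.0 to 279.5 FPKM, ALDH1A2 and RARB under 0.40, and DHRS3 spans the widest range, from 0.93 in R-spondin2 to 7.12 in clone 1.

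CYP26A1, the cytochrome that hydroxylates retinoic acid and so ends its action, was at 136 FPKM in the control, 197 in R-spondin2, 69.8 in clone 1 and 91.7 in clone 2. R-spondin2 was the highest of the libraries and both clones were below the control, clone 1 at 51.5% and clone 2 at 67.7% of it. The log2 difference from the control was 0.54 in R-spondin2, which 0.701% of the 12697 genes tested exceeded, and -0.95 and -0.56 in the clones. Counting error was small beside these differences, with intervals of the log2 ratio of 0.47 to 0.61 in R-spondin2, -1.05 to -0.86 in clone 1 and -0.65 to -0.47 in clone 2. The clones themselves differed by 0.39, with an interval of the log2 ratio of 0.29 to 0.50. CYP26A1 made up 99.3% to 99.5% of the summed FPKM of the 3 CYP26 genes, and CYP26B1 and CYP26C1, which act on the same substrate, were at 0.08 to 0.65 FPKM.

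DHRS3, the reductase that returns retinal to retinol, showed the widest range of the 10 genes and the opposite order. It was at 2.20 FPKM in the control, 0.93 in R-spondin2, 7.12 in clone 1 and 4.84 in clone 2. Both clones were above both wild type libraries, and R-spondin2 was the lowest. These levels correspond to only 34, 14, 109 and 73 reads. The log2 difference from the control was -0.73 in R-spondin2, 1.34 in clone 1 and 0.87 in clone 2, and only 43 genes, DHRS3 included, had a mean difference of the clones at least as high. As a ratio of FPKM, clone 1 was 3.24-fold and clone 2 2.2-fold above the control, with intervals of the log2 ratio of 1.12 to 2.28 and 0.51 to 1.75, while R-spondin2 was at 42.3% of the control, with an interval of -2.26 to -0.31. DHRS3 thus reached the 2-fold call in 1 of the 2 clones, and with a pseudocount of 0.1 FPKM in place of 1 it was called higher in LGR4-/- (mean log2 difference 1.38) and lower in R-spondin2 (-1.16).

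The binding proteins CRABP1 and CRABP2 differed in their patterns. CRABP2, which hands retinoic acid to RAR in the nucleus, was at 279.5 FPKM in the control, 279.2 in R-spondin2, 151 in clone 1 and 181 in clone 2. The wild type libraries were level, with a log2 difference of -0.0015 (interval of the ratio -0.08 to 0.08), and the clones were lower by a log2 difference of -0.89 and -0.62. CRABP1, which holds retinoic acid in the cytoplasm and is linked to its breakdown, was at 99.5, 62.0, 139 and 119 FPKM in the same order. Here R-spondin2 was the lowest library (log2 difference -0.67, interval of the ratio -0.86 to -0.51) and both clones lay above the control (0.48 and 0.25, intervals 0.34 to 0.62 and 0.11 to 0.40). The ratio of CRABP2 to CRABP1 was 2.81 in the control, 4.51 in R-spondin2, 1.09 in clone 1 and 1.53 in clone 2. This ratio was lower in both clones than in either wild type library.

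**Figure D2:**
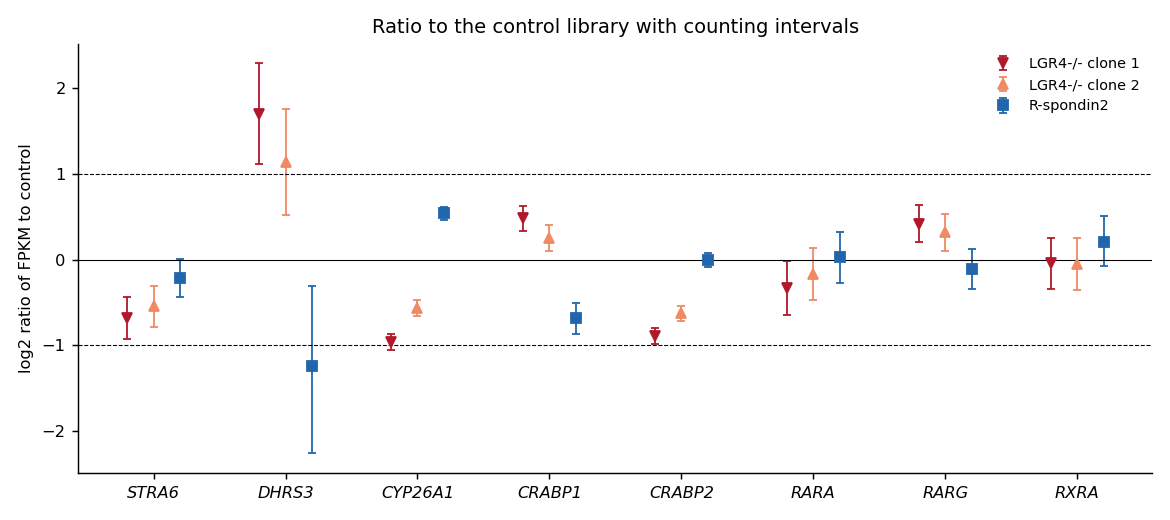
Log2 ratio of FPKM to the control library for the 8 genes averaging at least 1 FPKM, with 1 point for R-spondin2 and 1 for each LGR4-/- clone and 95% exact binomial intervals (counting error only, shortest transcript). DHRS3 and CRABP1 lie above 0 in both clones and below it in R-spondin2, CYP26A1 the reverse, and CRABP2 and STRA6 lie below 0 in both clones.

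STRA6, the membrane receptor that takes up retinol from its carrier protein in blood, was at 21.7 FPKM in the control, 18.8 in R-spondin2, 13.6 in clone 1 and 14.9 in clone 2. The clones were the lowest libraries, with log2 differences of -0.64 and -0.52 and intervals of the ratio of -0.93 to -0.44 and -0.78 to -0.31. For the difference of -0.20 in R-spondin2 the transcript length decided whether the interval of the ratio held 0, from -0.44 to 0.01 with the shortest transcript and from -0.39 to -0.03 with the longest. The clones were closer to each other (0.13) than to the control.

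ALDH1A2, the retinal dehydrogenase that makes most retinoic acid in embryonic mesoderm, was listed at 0.15, 0.39, 0.10 and 0.07 FPKM in the control, R-spondin2, clone 1 and clone 2, which stands for 1 to 5 reads with the shortest transcript and 3 to 14 with the longest. No difference from the control was detectable at this depth with either length, nor for RARB. Between each clone and R-spondin2 the interval of the ALDH1A2 ratio excluded 0 with the longest transcript only (-3.90 to -0.17 for clone 1 and -4.68 to -0.40 for clone 2). Of the ALDH1A family, ALDH1A3, an enzyme with the same activity, was the highest in each library, at 3.06, 3.52, 1.62 and 2.45 FPKM, and ALDH1A1 was at 0.19 to 0.42.

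Among the receptors, RARG was the most abundant RAR and stood higher in both clones. It was at 20.0 FPKM in the control, 18.5 in R-spondin2, 26.7 in clone 1 and 24.9 in clone 2, with log2 differences of -0.10, 0.40 and 0.30, and only the intervals of the clones excluded 0 (0.20 to 0.63 and 0.10 to 0.54). RARA was at 10.6, 10.8, 8.44 and 9.42 FPKM, and its difference of -0.15 in clone 2 was within counting error (interval of the ratio -0.47 to 0.14), whereas the interval of clone 1 (-0.64 to -0.01) just excluded 0. RARG made up 65.0% of the summed RAR level in the control, 63.0% in R-spondin2, 75.4% in clone 1 and 72.4% in clone 2. RARB, itself a target of retinoic acid in many cells, was at 0.07 to 0.25 FPKM, or 1 to 3 reads with the shortest transcript and 2 to 7 with the longest. RXRA, the common partner, was the steadiest member, at 11.6, 13.4, 11.2 and 11.2 FPKM, and all its intervals against the control included 0. Its relative RXRG was at 5.06, 5.20, 1.57 and 2.41 FPKM and so supplied 19.0%, 18.9%, 7.50% and 10.8% of the summed RXR level.

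**Figure D3:**
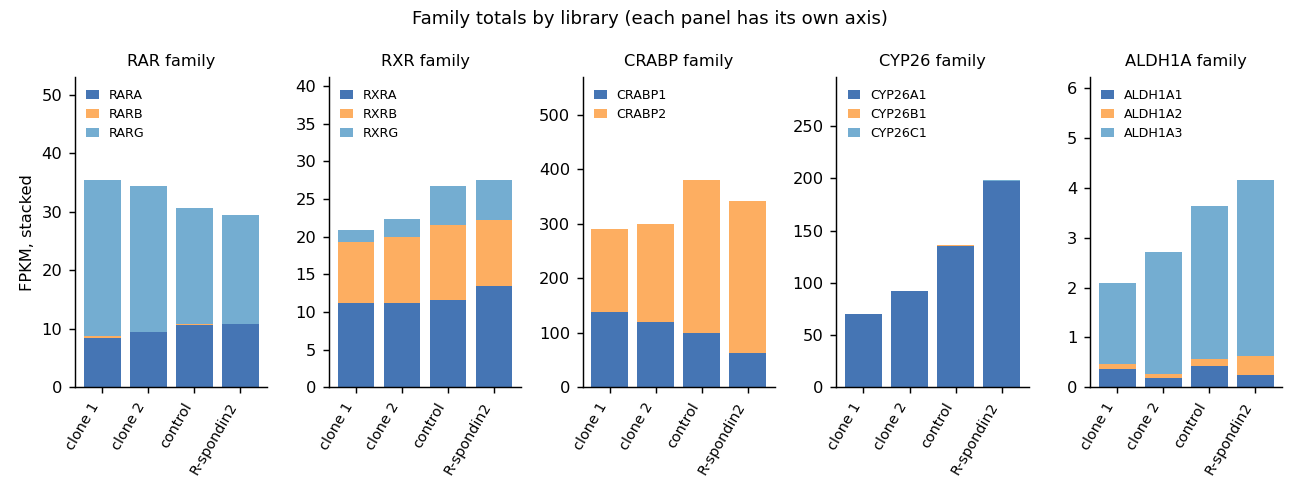
Stacked FPKM of the RAR, RXR, CRABP, CYP26 and ALDH1A genes in each library, 1 bar per library, with a separate axis from 0 for each family. The RARG share is larger in the clones (75.4% and 72.4%) than in the control (65.0%), the RXRG share smaller, and CYP26A1 supplies at least 99.3% of the CYP26 sum in each library.

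By the 2-fold call, 0 of the 8 members tested were called in R-spondin2, where 0.221% of all genes were, 0 in LGR4-/- (1.32% of all genes) and 0 between the clones (0.252%). At 1.5-fold, DHRS3 and CRABP1 were lower in R-spondin2 (2 of 8, against 2.01% of all genes), DHRS3 was higher and CRABP2 lower in both clones (2 of 8, against 5.7%), and no member differed between the clones (2.43%). The members were chosen with earlier results of these data known, so these shares are a description and no test. The median difference over the members was -0.05 in R-spondin2, -0.17 in clone 1 and -0.10 in clone 2. Over all genes tested it was -0.01, 0.02 and 0.02. Against the R-spondin2 library in place of the control, a comparison added after the values were seen, both clones were past 2-fold for CYP26A1 (-1.48 and -1.09) and DHRS3 (2.07 and 1.60), where 3.48% of all genes were called.

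A test across all genes could be made only by limma on log2(FPKM + 1), with a spread that came from the pair of clones alone and that the single wild type libraries were assumed to share. Neither comparison had a gene at an adjusted p under 0.05 (0 of 12697 in each), with 481 genes (3.79%) for R-spondin2 and 2332 (18.4%) for LGR4-/- at an unadjusted p under 0.05. In LGR4-/- the limma adjusted p was 0.0899 for CRABP2 (log2 difference -0.76 ± 0.12, SE), 0.101 for STRA6 (-0.58 ± 0.12), 0.113 for DHRS3 (1.11 ± 0.24) and 0.113 for CYP26A1 (-0.75 ± 0.17). RARG and CRABP1 had adjusted p values by limma of 0.177 and 0.186, RARA of 0.448 and RXRA of 0.884. In R-spondin2 the limma adjusted p was at least 0.992 for each member, although the unadjusted p was 0.00325 for CRABP1, 0.0372 for CYP26A1 and 0.0466 for DHRS3.

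CYP26A1 and RARA were lowest in clone 1, then in clone 2, then in the control and highest in R-spondin2, and DHRS3, CRABP1 and RARG had the exact opposite order, while CRABP2, STRA6 and RXRA kept neither order. The first order was thus held by 2 of 8 members (25%) and by 13.9% of all genes tested. The second was held by 3 of 8 (37.5%) and by 17.1%. For RARA, the intervals of R-spondin2 against control (-0.27 to 0.33) and of clone 2 against clone 1 (-0.16 to 0.49) included 0. Those of RARG (-0.34 to 0.13 and -0.30 to 0.10) did so too, and the orders of both genes were not resolved by counting. The mesoderm markers had the first order in 7 of 8 and the pluripotent markers the second in 6 of 8, and the part of these markers in the order of the members was not tested. The difference between R-spondin2 and control and that between clone 2 and clone 1 share no library. Their signs matched for 5 of 8 members (CYP26A1, DHRS3, CRABP1, RARA and RARG) and for 59.2% of all genes tested. The members thus stood near the share of all genes, and the signs of RARA and RARG were within counting error. Across those genes, which are not independent replicates, Pearson's r between the differences was 0.28 and Spearman's rho 0.27.

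**Figure D4:**
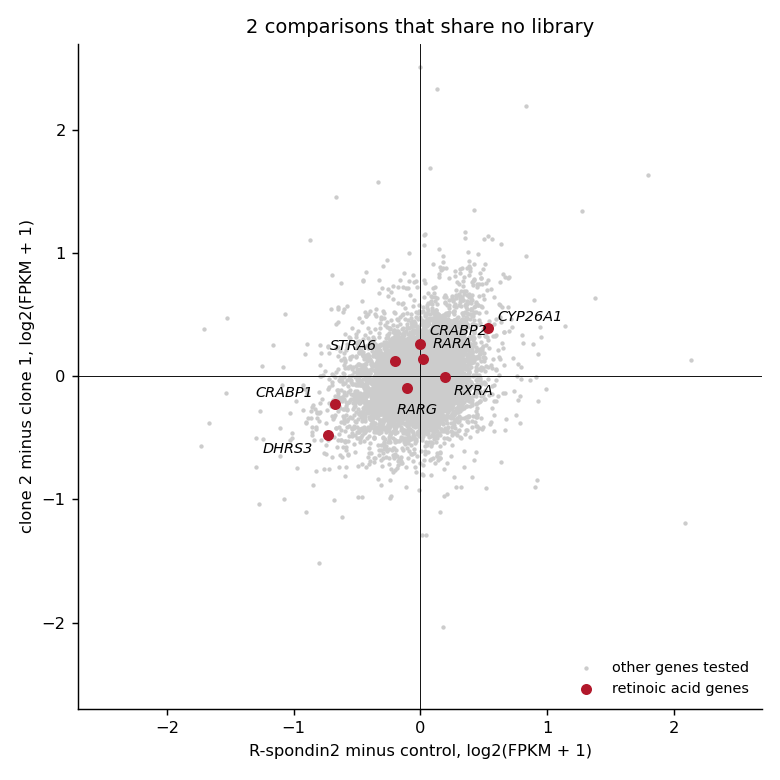
Difference in log2(FPKM + 1) between R-spondin2 and control (horizontal) and between LGR4-/- clone 2 and clone 1 (vertical) for the 12697 genes tested (grey) and the 8 retinoic acid genes among them (red). CYP26A1 lies at 0.54 and 0.39, DHRS3 at -0.73 and -0.48 and CRABP1 at -0.67 and -0.22, toward the edge of the cloud.

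The genes whose differences from the control lay closest to those of the widest-ranging members were found by the Euclidean distance over the 3 differences from the control. For DHRS3 these were FOXD3 (distance 0.09 on the log2 scale), JPH4 (0.13) and AASS (0.14), and FOXD3, a transcription factor of pluripotent and neural crest cells, was at 1.99, 0.92, 6.56 and 4.47 FPKM in the control, R-spondin2, clone 1 and clone 2. For CYP26A1 they were ERVH48-1 (0.06), GSC (0.06) and MYOF (0.07), and GSC, a homeobox gene of the organizer, was at 46.2, 66.1, 23.6 and 29.8 FPKM. CRABP1 was nearest to SYP (0.09), RRAGD (0.09) and RGMA (0.10). SYP (1.09, 0.33, 1.77 and 1.57 FPKM in the same order) and RRAGD (1.19, 0.46, 2.04 and 1.57) lay far below CRABP1. The pseudocount of 1 FPKM shrinks the differences of such low genes, so a small distance does not mean an equal ratio of FPKM. The same limit holds for DHRS3 beside AASS, which was at 20.4 to 79.9 FPKM.

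Outside the 10 members, 97 further genes of the pathway were listed and 55 had a mean of at least 1 FPKM. Of the 55, 0 were called in R-spondin2 (0.221% of all genes) and 0 between the clones (0.252%), and 7 (12.7%) were called in LGR4-/-, 2 higher and 5 lower, against 1.32% of all genes. These lists were chosen with earlier results of these data known, so the shares are a description and no test. Of the 6 genes of uptake, transport and storage 0 were called. RBP7, a retinol-binding protein, was at 0.99, 0.51, 1.31 and 2.33 FPKM in the control, R-spondin2, clone 1 and clone 2. LRAT, which stores retinol as esters, was at 1.05, 0.68, 1.55 and 1.35 FPKM, and PNPLA4 was at 4.83 to 6.17. Of the 8 genes of synthesis 0 were called. RDH11, a retinol dehydrogenase by name, was at 35.4, 34.6, 46.2 and 48.1 FPKM. The direction in which it acts in these cells was not measured. RDH13 and RDH5 lay within 5.86 to 7.01 and 0.94 to 1.67 FPKM.

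Of 4 genes of retinal reduction and retinoic acid breakdown, 1 was called in LGR4-/- (25%, against 1.32% of all genes). This was CYP2S1, a cytochrome able to metabolise retinoic acid, and it was called higher. It was at 32.6 FPKM in the control, 23.0 in R-spondin2, 75.1 in clone 1 and 67.5 in clone 2, with log2 differences of -0.49, 1.18 and 1.03. Its order across the groups was that of DHRS3 and not that of CYP26A1. CYP1B1 was at 5.76 to 8.32 FPKM, DHRS4 at 12.4 to 14.1 and DHRS7 at 7.35 to 9.96. Of 4 further receptors and binding proteins 0 were called. FABP5, which can carry retinoic acid to the receptor PPARD, was at 583, 694, 374 and 450.1 FPKM, and PPARD was at 8.65 to 10.6. RXRG reached 2-fold in clone 1 (-1.24) and not in clone 2 (-0.83). The 16 receptor coregulators tested had 0 calls and medians of -0.02, -0.0047 and -0.06 in R-spondin2, clone 1 and clone 2. The widest of them, NRIP1, a corepressor of nuclear receptors, differed by -0.44 and -0.26 in the clones. NCOA1 and TBL1X had mean clone differences of -0.28 and -0.26. The lists with 0 calls held 4 to 16 tested genes. Of all genes, 1.32% were called in LGR4-/-, 0.221% in R-spondin2 and 0.252% between the clones. A count of 0 in so short a list therefore does not set it apart from all genes.

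Genes known to respond to retinoic acid in other settings held most of the calls. Of 36 listed, 17 had a mean of at least 1 FPKM and 6 (35.3%) were called in LGR4-/-, 1 higher and 5 lower, against 1.32% of all genes. The list was chosen with earlier results of these data known, so this share describes the list and tests nothing. The median log2 difference of the 17 was 0.02 in R-spondin2, -0.86 in clone 1 and -0.65 in clone 2. HOXB2, a segment identity gene of the hindbrain and trunk, was at 6.96 FPKM in the control, 8.50 in R-spondin2, 0.35 in clone 1 and 1.06 in clone 2, with log2 differences of 0.26, -2.56 and -1.95. GATA4, at 40.5, 53.2, 8.05 and 15.1 FPKM, and GATA6, at 141, 187, 39.5 and 61.2, encode factors of heart and endoderm and had the same order. CDX2 (8.80, 5.89, 2.87 and 3.53 FPKM) and MEIS2 (2.58, 2.62, 0.59 and 0.70 FPKM) were also called lower in both clones and are named here because their calls were seen. RARRES2, the chemoattractant chemerin, was the call in the other direction, at 21.8, 20.2, 62.0 and 49.97 FPKM, with log2 differences of 1.47 and 1.16 in the clones. PDGFRA of this list is also one of the mesoderm markers, and GATA4 and GATA6 are used by mesoderm and endoderm cells as well. The part of the marker shift in these differences was not tested.

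**Figure D5:**
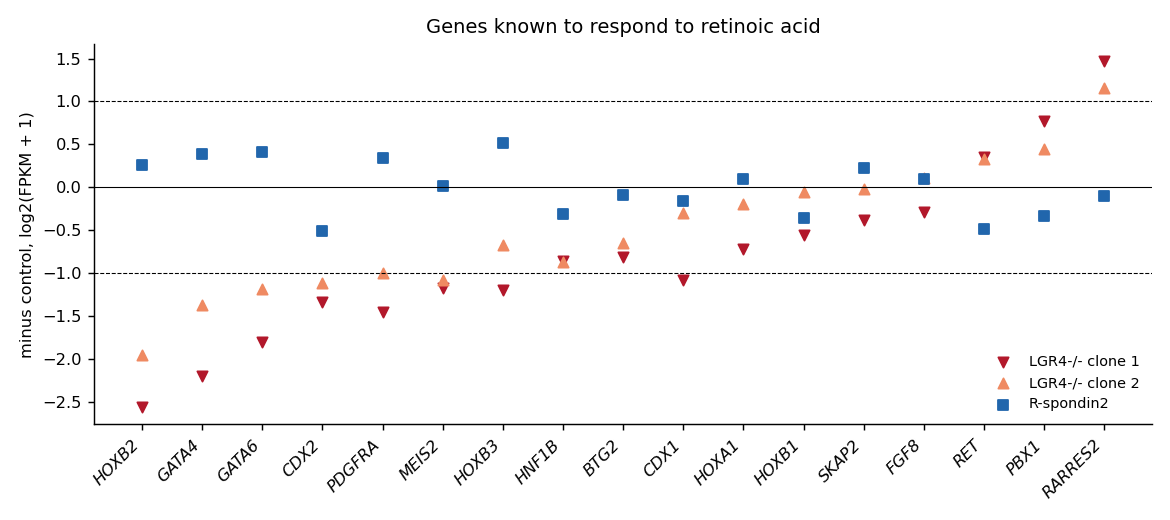
Difference from the control in log2(FPKM + 1) of the 17 genes known to respond to retinoic acid that averaged at least 1 FPKM, for R-spondin2 and each LGR4-/- clone, ordered by the mean of the clones, with dashed lines at the 2-fold call. HOXB2, GATA4, GATA6, CDX2 and MEIS2 lie below -1 and RARRES2 above 1 in both clones, and no R-spondin2 point passes either line.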

How the data were processed

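RNA was extracted from sorted H1 cells at day 2 of co-culture, and 1 table per library was deposited. The deposited values were gene-level FPKM with 2 decimals, and the submitters' processing notes name BWA, Bowtie, RSEM and the genome build hg19 without saying what each was used for. No counts were at hand. Depth was therefore estimated from the low FPKM values (under 0.6) of genes with a single transcript shorter than 1500 bases (GENCODE v29 lengths). It was the number of reads that best turned them into whole reads. At that depth 76.0% to 78.2% of 335 to 359 values came within 0.2 of a whole read, against 32.1% to 38.7% with shuffled lengths. Depth was not refitted to the shuffled lengths, so their share is no matched comparison for a fitted best value. The lengths the submitters used are not given in the sources used here, so implied reads are approximate.

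Differences were taken on log2(FPKM + 1) for genes averaging at least 1 FPKM over the 4 libraries, called at a log2 difference of 1, and set beside the same count over all 12697 genes. A fold on this scale understates the change of low genes. Intervals cover counting error only, since reads without molecular identifiers are not independent molecules. No source says that the libraries came from separate cultures. limma (3.58.1, R 4.3.3) with a mean-variance trend was fitted to 3 groups with 1 residual degree of freedom and Benjamini-Hochberg adjustment. Python 3.11.15 with numpy 2.4.6, pandas 2.3.3, scipy 1.17.1 and matplotlib 3.10.9 was used for the rest, and calls, depth estimate and limma were tested on simulated data.

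The members and gene lists were chosen with earlier results of these data known. From each pathway list the 4 genes with the largest mean difference of the clones were named, and for each of the 3 members with the widest range the 3 nearest genes. Some genes that this rule names are not reported here. Alternatives were another pseudocount, other filters, rescaling by median ratios, a 1.5-fold call, limma and leaving out each clone. Promoters came from RefSeq on GRCh38.p14, a build other than that of the files, and no gene coordinates were carried between builds.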

Additional observations from a re-analysis of the deposited data

How the results depend on the processing

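With 1 library in the control and in R-spondin2, the spread between cultures was not measured, and the estimated 8700000 to 8920000 reads left ALDH1A2 and RARB at 1 to 5 reads with the shortest transcript and 2 to 14 with the longest. No paired analysis was possible because the groups share fewer than 2 replicate numbers. Members past 2-fold, 0 of 8 in each comparison, became 1 (DHRS3) in R-spondin2 and 1 (DHRS3) in LGR4-/- with a pseudocount of 0.1 FPKM, 2 and 2 with a 1.5-fold call, 2 in LGR4-/- with the R-spondin2 library as the reference, and 0 to 1 when either clone was left out, DHRS3 being called by clone 1 alone. Pathway genes called in LGR4-/-, 7 of 55, became 11 with a pseudocount of 0.1 FPKM, 12 with a 1.5-fold call and 0 by limma adjusted p (lowest over all genes 0.0755, with 2332 genes at an unadjusted p under 0.05), and were 7 to 11 when either clone was left out (11 with clone 1 alone). Between the clones, 0 pathway genes became 2 with the smaller pseudocount and 4 with the 1.5-fold call. The 1.5-fold call took 2.01% of all genes in R-spondin2, 5.7% in LGR4-/- and 2.43% between the clones. The share of all genes called with the smaller pseudocount was not computed, nor was the share called by 1 clone alone. A call by 1 clone is a looser rule than a call by both. Another set, added after the data were seen, was used in place of the written lists. It held the 63 tested genes with a deposited annotation naming a retinoid or vitamin A. Its calls were 7 in LGR4-/- (11.1%, against 1.32% of all genes) and 1 in R-spondin2 (SOX2, 1.59% against 0.221%). Between the clones it had 1 call (BMP4, 1.59% against 0.252%). The 7 calls of this set in LGR4-/-, 1 higher and 6 lower, were RUNX1, BMP4, BMP2, WNT5A, DKK1, SOX2 and WNT8A. SOX2 and RUNX1 are also among the cell state markers above. Only 12 genes were tested in both sets, and 0 of these 7 calls were among the 7 of the written lists. Rescaling by median ratios (factors 0.989 to 1.01) and the filters left each of these counts within 1.5 times. Of 125 alternative values of the members' differences, 122 kept their sign, and the other 3 were for CRABP2, RARB and RXRA, each near 0. The 125 include values under the other filters, which leave a member's own difference unchanged, so the sign of those could not change. The cause of these shifts was not tested.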
